A study of Mus musculus with 6 samples.

Results

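The genes described here are the estrogen receptors Esr1 and Esr2, the estrogen-related receptors Esrra, Esrrb and Esrrg, the membrane estrogen receptor Gper1, the progesterone receptor Pgr, and the row ENSMUSG00000044341, which was read in every conditional knockout forebrain and hardly at all in the controls. They are 8 of the 35275 rows of the deposited read count table, taken by symbol from the GENCODE M21 annotation or, for the last, by its identifier. Esr1 and ENSMUSG00000044341 were chosen because they were higher in the knockout group of this same comparison, so the values of the 8 genes between the groups are given as a description, without a test. The libraries came from forebrains of C57BL/6 mice killed on postnatal day 9. The conditional knockouts (cKO) were 3 mice of the genotype Pdgfra-CreER:Parp1fl/fl, in which a tamoxifen-inducible recombinase driven by Pdgfra acts on floxed Parp1, and the control group held 3 Parp1fl/fl littermates that carried no recombinase. Mice of both groups received tamoxifen, itself a ligand of the estrogen receptors, once a day from postnatal day 1 to 3. Pdgfra marks oligodendrocyte precursor cells and is also expressed by fibroblasts of the meninges and vessels, so the recombinase is not limited to 1 cell type. The RNA is that of the whole forebrain, in which fewer cells of a type and less RNA per cell cannot be told apart.

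Estrogen receptor alpha (Esr1) and beta (Esr2) are nuclear receptors that bind estradiol, pair up on DNA and recruit coactivators or corepressors to their target genes. The estrogen-related receptors share their DNA-binding and ligand-binding folds but do not bind estradiol, and act with the PGC-1 coactivators on genes of energy metabolism. In the brain Esr1 is best known from hypothalamic, preoptic and amygdalar neurons. The recombinase, CreER in the genotype and CreERT2 in the labels' extract protocol, is a fusion of Cre to a mutated ligand-binding domain of human estrogen receptor alpha, which holds the enzyme out of the nucleus until tamoxifen binds. The cKO mice carried this transgene and the controls did not. Reads of the transgene's mRNA and reads of Esr1 itself cannot be told apart in a table with 1 count per gene.

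The last coding exon of mouse Esr1 is shown with its counterpart in Esr2. It encodes the end of the ligand-binding domain, the domain that the recombinase borrows from the human receptor, and then the tail of the protein beyond it. Each sequence is the coding part of the last coding exon, exon 10 in both transcripts, without the stop codon, from the GENCODE M21 transcripts Esr1-204 (chr10:5001189-5001420, mm10, plus strand, 232 bases) and Esr2-205 (chr12:76121733-76121916, mm10, minus strand, 184 bases). Capitals mark the longest run that both exons share exactly, 9 bases that lie in the last helix of the domain, the one that closes over the ligand.
Esr1: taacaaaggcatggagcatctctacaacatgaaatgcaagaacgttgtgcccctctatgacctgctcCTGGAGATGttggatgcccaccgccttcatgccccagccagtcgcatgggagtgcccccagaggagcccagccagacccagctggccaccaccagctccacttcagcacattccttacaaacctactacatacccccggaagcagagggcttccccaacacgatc
Esr2: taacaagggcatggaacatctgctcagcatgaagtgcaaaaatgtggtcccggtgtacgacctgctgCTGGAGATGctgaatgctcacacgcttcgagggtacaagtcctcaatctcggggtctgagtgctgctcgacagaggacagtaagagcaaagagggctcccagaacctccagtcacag
Of 174 bases aligned between these exons, 122 matched (70.1%), a share over the end of the domain and the tail together. Over whole annotated transcripts, the longest exact run that Esr1 shared with any of the other 6 named genes was 17 bases, with Esr2. The longest between any 2 of the 7 was 22 bases, between Esrra and Esrrb. The human sequence in the transgene was not analysed here, so how many of its bases match mouse Esr1 was not tested.

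Esr1, on chromosome 10 (4611593 to 5005614, plus strand, mm10), was at 1.99 times the control level in the cKO forebrains. Its read counts were 172, 213 and 217 in cKO replicates 1, 2 and 3, and 60, 81 and 114 in control replicates 1, 2 and 3. In CPM, counts scaled to the library total after TMM normalisation, these were 8.48, 8.6 and 7.55 in cKO and 3.46, 3.73 and 5.2 in controls. The lowest cKO library stood above the highest control, which was replicate 3. The means were 8.21 ± 0.577 CPM in cKO against 4.13 ± 0.936 in controls (SD, n = 3 mice each), and the edgeR log2 fold change was 0.98. Of the 602 Esr1 reads pooled over the cKO libraries, 293 (48.7%) lay above the number that the control level would give. Among the cKO mice the values varied by 7.03% (coefficient of variation), close to the 7.13% that counting error alone gives, whereas the controls varied by 22.7% against 10.9%. A fold of at least 2 upward was reached by 0.466% of the 16938 genes tested, and 82 had a log2 fold change at or above that of Esr1, a share of 0.484% that includes Esr1 itself.

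**Figure D1:**
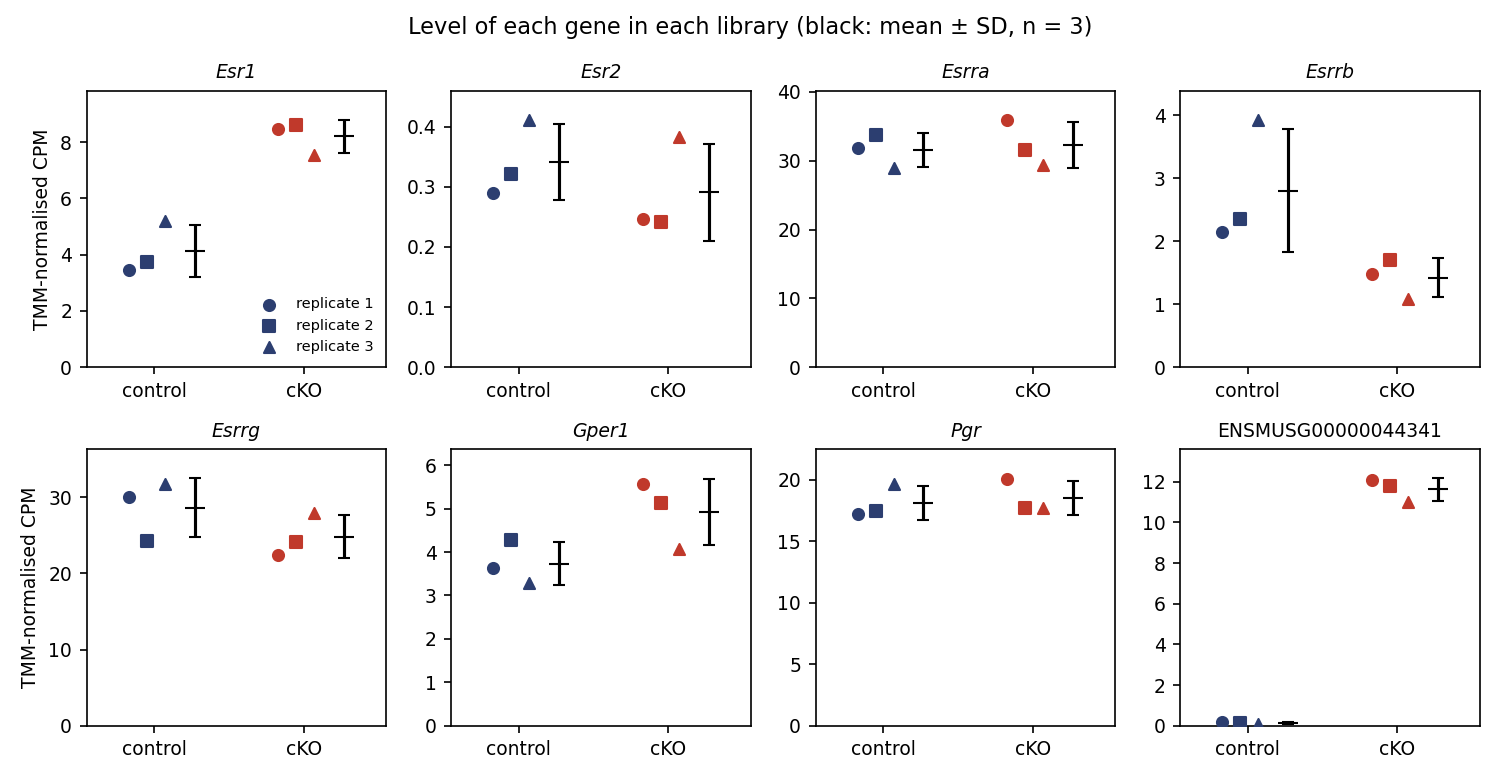
TMM-normalised CPM (vertical axes, each starting at 0) of the 8 genes in the 3 control (blue) and 3 cKO (red) libraries, with marker shapes for replicates 1 to 3 and the mean ± SD in black. Esr1 and ENSMUSG00000044341 were higher in each cKO library than in each control, Esrrb was lower in each, and the other 5 genes overlapped between the groups.

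ENSMUSG00000044341 had 245, 293 and 317 reads in cKO replicates 1, 2 and 3, and 3, 3 and 2 reads in control replicates 1, 2 and 3. The identifier has no entry in GENCODE M21, so no symbol, position or gene type is given for it. The deposited FPKM values, counts scaled to gene length and library total, imply a length of 1437 bp for it. Its level was 12.1 CPM in cKO replicate 1, with an exact Poisson 95% interval of 10.6 to 13.7, 11.8 (10.5 to 13.3) in replicate 2 and 11 (9.85 to 12.3) in replicate 3. In controls it was 0.173, 0.138 and 0.0913 CPM, with upper bounds of 0.506, 0.403 and 0.33. These intervals cover counting error only. The 3 cKO values varied by 4.75%, less than the 5.98% of counting error, so the knockout libraries held this RNA at levels that the reads do not separate. The pooled counts of 855 and 8 give a CPM ratio of 88.3, with a counting interval of 44.6 to 205. That interval leaves out the variation between mice, and the row was chosen from these same counts, so it is no test.

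Among the rows without a name in the annotation, this one had the largest difference of those tested. Of 785 such rows 333 had a read in some library and 119 were tested. ENSMUSG00000044341 ranked 31 by mean CPM in cKO and 182 in controls, and took 0.925% of the reads of unnamed rows in cKO against 0.0106% in controls. The other tested unnamed rows had absolute log2 fold changes of at most 0.96, against 6.41 for this one. ENSMUSG00000044341 was chosen for being higher in cKO, and it passed the filter on low counts through its cKO reads. Its place among the unnamed rows is therefore no test.

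Both genes were set beside Pdgfra, which drives the recombinase. Pdgfra, the receptor for platelet-derived growth factor A, was at 113, 139 and 106 CPM in cKO replicates 1, 2 and 3 and at 160, 150 and 179 CPM in controls. Its log2 fold change of -0.45 was not called (adjusted p = 0.253 by edgeR), and its exons overlap genes on the opposite strand by 622 bp. ENSMUSG00000044341 came to 10.7%, 8.48% and 10.4% of the Pdgfra CPM in the cKO libraries, and to at most 0.108% in a control. The ratio of ENSMUSG00000044341 to Esr1 in CPM was 1.42, 1.38 and 1.46 in cKO replicates 1, 2 and 3. Its ratio to the Esr1 CPM above the control mean was 2.78, 2.65 and 3.23. CPM does not divide by length, which the deposited FPKM put at 1437 bp for this row and 6339 bp for Esr1. These ratios and percentages therefore compare libraries, not the levels of different genes.

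Esr2, the estrogen receptor beta gene on chromosome 12 (76120419 to 76177259, minus strand), was close to the limit of detection in both groups. It had 5, 6 and 11 reads in cKO replicates 1, 2 and 3 and 5, 7 and 9 in the controls, or 0.291 ± 0.0798 and 0.34 ± 0.063 CPM (SD, n = 3 mice each), and it did not pass the filter on low counts. The groups overlapped, and counting error alone came to 37.3% of the level per library in cKO and 38% in controls. Gper1, a G-protein-coupled receptor that responds to estradiol at membranes (chromosome 5, 139423151 to 139427800), was at 5.57, 5.13 and 4.07 CPM in cKO against 3.64, 4.28 and 3.29 in controls. Its mean was 4.92 ± 0.773 against 3.73 ± 0.504 CPM, which is 0.39 as log2 fold change, and cKO replicate 3 lay below control replicate 2.

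Pgr, the progesterone receptor (chromosome 9, 8899833 to 8968611), is a classical target gene of estrogen receptor alpha. Its values were 20.1, 17.7 and 17.7 CPM in cKO against 17.2, 17.5 and 19.7 in controls. The groups covered the same range, with means of 18.5 ± 1.37 and 18.1 ± 1.37 CPM (SD, n = 3 mice each) and a log2 fold change of 0.03.

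Of the estrogen-related receptors, Esrrb was lower in cKO and the other two overlapped between the groups. Esrrb, on chromosome 12 (86361117 to 86521628) and known as a pluripotency factor, was at 1.48, 1.7 and 1.08 CPM in cKO replicates 1, 2 and 3 and at 2.14, 2.35 and 3.92 CPM in controls. Every cKO value lay below every control, and control replicate 3 was far above the rest. The means were 1.42 ± 0.313 and 2.8 ± 0.977 CPM (SD, n = 3 mice each), with a log2 fold change of -1 that was -0.68 without control replicate 3. Esrrg, a receptor of neurons and other cells with high energy use (chromosome 1, 187608791 to 188214885), was at 22.4, 24.2 and 27.9 CPM in cKO against 30, 24.3 and 31.7 in controls, which is -0.2 as log2 fold change. Esrra, the widely expressed member of the family (chromosome 19, 6910977 to 6921813), was at 35.9, 31.5 and 29.4 CPM in cKO against 31.8, 33.8 and 28.9 in controls, which is 0.03 as log2 fold change. Its exons overlap those of Trmt112 on the opposite strand by 73 bp, and those of the microRNA gene Mir6990 on the same strand by 91 bp, so its count is less certain. The other 6 named genes overlap no annotated exon of another gene.

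Over the 8 genes, 7 were tested, and 2 of them, Esr1 and ENSMUSG00000044341, were among the genes called higher by edgeR, as were 0.059% of all tested genes, and 0 were called lower, as were 0.207%. The same 2 had cKO values all above the controls, as did 6.08% of tested genes, and 1, Esrrb, had them all below, as did 5.86%. Since the genes were chosen from this comparison, nothing is read from these counts. With 1 library left out at a time, Esr1 stayed called without control replicate 3 and lost its call without each of the other 5. The Esr1 log2 fold change ran from 0.88, without control replicate 1, to 1.18, without control replicate 3. These calls rest on the values by which Esr1 was chosen, so they are no support for its difference.

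The levels of different genes were compared in deposited FPKM, which divides by length. In controls the order was Esrra at 14.1 ± 1.21 FPKM, Esrrg at 5.33 ± 0.68, Pgr at 2.63 ± 0.177, Gper1 at 1.47 ± 0.211, Esr1 and Esrrb both at 0.651 (SD 0.142 and 0.221), Esr2 at 0.101 ± 0.0179 and ENSMUSG00000044341 at 0.0936 ± 0.0291 (n = 3 mice each). Neighbours in this order did not overlap in their ranges, except Esr1 with Esrrb and Esr2 with ENSMUSG00000044341. In cKO, ENSMUSG00000044341 at 8.09 ± 0.52 FPKM stood between Esrra at 14.4 ± 1.76 and Esrrg at 4.61 ± 0.433. Esr1 at 1.29 ± 0.108 stayed below Gper1 at 1.94 ± 0.336 and stood above Esrrb at 0.329 ± 0.0752. No neighbours overlapped in the cKO order.

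**Figure D2:**
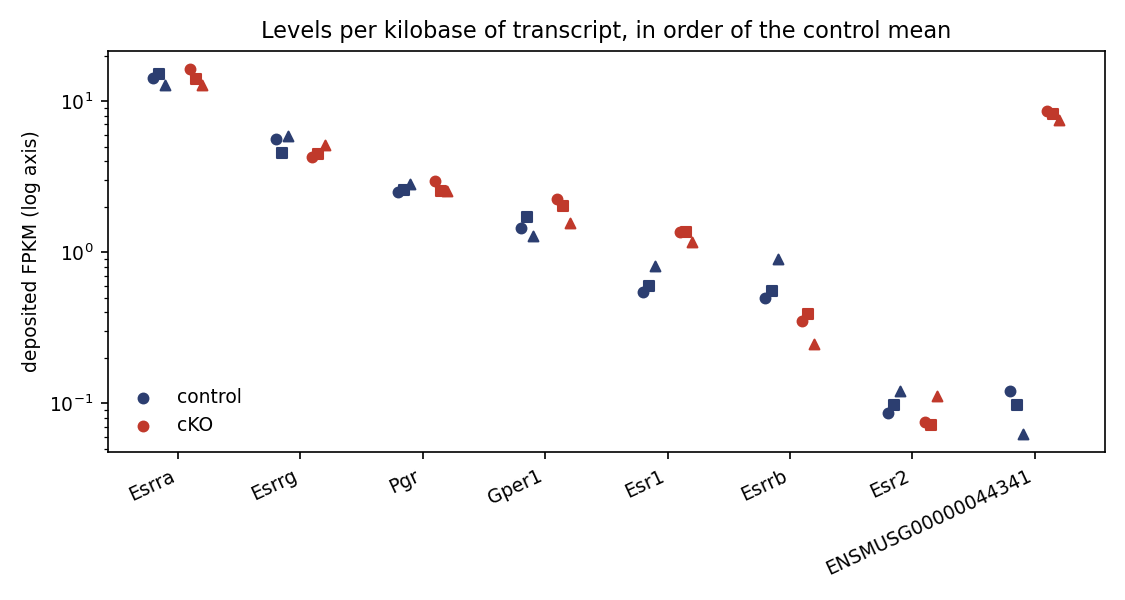
Deposited FPKM on a log axis for the 8 genes, ordered by the control mean, with 1 point per library (control blue, cKO red). Esrra was the highest of the 8 in both groups, and ENSMUSG00000044341 was the lowest in controls, at 0.0936 FPKM, and next to Esrra in cKO, at 8.09.

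Control replicates 1 and 3 differed from the other libraries in ways that the genotype does not describe. Total counts ran from 17262042 to 29310193 per library. Control replicate 3 had the lowest summed level of 12 striatal markers, 351 CPM against 993 to 1270 in the other libraries, and the highest of 12 thalamic markers, 843 against 371 to 424. It was also the highest for the list of 30 hypothalamic and preoptic genes, at 380 CPM against 263 to 319, with 88 reads of Pmch and 75 of Hcrt, neuropeptides of the lateral hypothalamus, where no other library had more than 4 and 10. Y-linked RNA was read in control replicate 1 alone (1123 reads of Ddx3y against at most 1), which also had 3 reads of Xist against at least 20196. The level of the targeted gene, Parp1, was 79.8 ± 0.843 CPM in cKO against 91.2 ± 5.84 in controls, not called by edgeR (adjusted p = 0.572). Markers of the cortex, 11 genes, were read in every library at summed levels of 1840 to 2450 CPM, lowest in control replicate 3.

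Esr1 and Esrrb were read beside these markers. Control replicate 3 was the highest control for both genes, and for Esr1 it is also the library with the most hypothalamic RNA. The hypothalamic list ran from 274 to 318 CPM in cKO and from 263 to 380 CPM in controls. The upper end was control replicate 3. Sst alone gave 115 to 136 CPM of the sum in cKO and 124 to 165 CPM in controls. By edgeR 0 of the list's 22 tested genes were called (1 at an unadjusted p under 0.05), with a median log2 fold change of -0.21. Of the 22, 9 had a log2 fold change above 0, and the values ran from -0.8 to 0.54. Over all tested genes 0.266% were called and 6.27% had an unadjusted p under 0.05. The part of hypothalamic RNA in the level of Esr1 was not tested. Markers of the medial amygdala and bed nucleus summed to 408 to 437 CPM in cKO and 333 to 462 CPM in controls. Of that sum Meis2 gave 169 to 196 CPM in cKO and 90 to 203 CPM in controls. Of 9 pituitary markers, Gh, Prl, Cga and Lhb had no read (0) in any library. Tshb (4 to 17 reads), Pitx1 (2 to 18) and Pomc (15 to 53) were read in every library. The 9 summed to 1.67 to 2.07 CPM in cKO and 1.39 to 3.38 CPM in controls. The summed level of 14 oligodendrocyte genes was 350 to 400 CPM in cKO and 807 to 957 CPM in controls, that of 13 precursor genes 879 to 1060 and 1270 to 1320 CPM, and that of 15 microglial genes 573 to 691 and 366 to 554 CPM. All 3 moved with the groups as Esr1 did or in the reverse direction, and their part in the levels of Esr1, Esrrb and ENSMUSG00000044341 was not tested. Without control replicate 1, the 5 remaining mice all expressed Xist, and the Esr1 log2 fold change was 0.88.

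**Figure D3:**
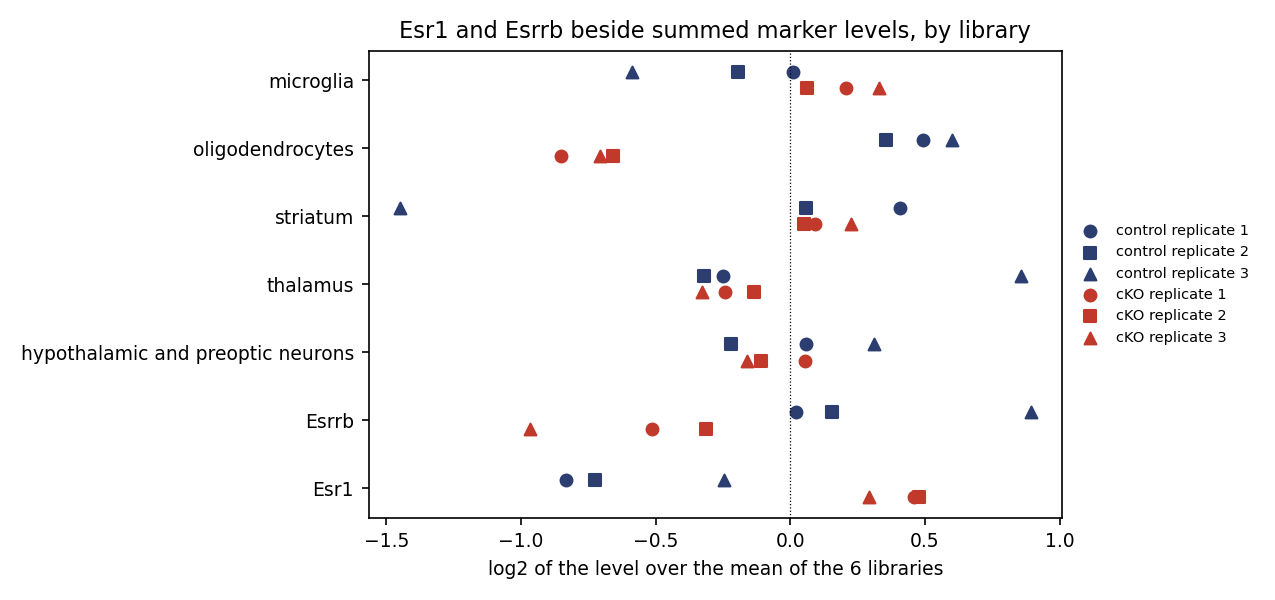
Log2 of each library's level over the mean of the 6 libraries for Esr1, Esrrb and the summed CPM of 5 marker lists, with controls in blue and cKO in red. Control replicate 3 (blue triangles) is the highest library for hypothalamic, thalamic and Esrrb levels and the lowest for striatal ones, while Esr1 is higher in all 3 cKO libraries than in it.

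Coregulators, the proteins that estrogen receptors recruit to their target genes, held no called gene. Of the 25 tested coregulators, 0 were called by edgeR, 0 had an unadjusted p under 0.05, and 0 were called by DESeq2 or limma-voom. Of all tested genes 0.266% were called by edgeR and 6.27% had an unadjusted p under 0.05. The coregulators' median log2 fold change was 0.02, and that of all tested genes was 0. The coactivator and acetyltransferase Crebbp was at 165 ± 10.2 CPM in cKO against 152 ± 4.73 in controls (SD, n = 3 mice each; adjusted p = 0.835 by edgeR). Mta1, of the NuRD corepressor complex, had a value of 0.11 on the log2 fold scale (adjusted p = 0.836) and Ppargc1b, a coactivator of the estrogen-related receptors, one of 0.22 (adjusted p = 0.844). These 3 had the smallest p of the list. The p160 coactivators Ncoa1, Ncoa2 and Ncoa3 were at log2 fold changes of -0.03, -0.02 and 0.1, and the corepressor Ncor1 at 0.01. The pioneer factors Foxa1 and Gata3 did not pass the filter, with 2.05 and 2.24 CPM in control replicate 3 and at most 0.197 and 0.174 CPM in any other library.

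Estrogen-responsive genes, taken from textbook targets in breast, uterus and brain, held 1 called gene. Of 36 tested, 1 was called lower and 0 higher by edgeR, with 4 at an unadjusted p under 0.05 and a median log2 fold change of -0.02. Over all tested genes 0.207% were called lower, 0.059% were called higher and 6.27% had such a p. The called gene was Tns3, a tensin that links integrins to the cytoskeleton and is also abundant in immature oligodendrocytes. Tns3 was at 65.5, 76.8 and 64.6 CPM in cKO replicates 1, 2 and 3 and at 98.5, 88.4 and 98.1 CPM in controls, which is -0.46 as log2 fold change (edgeR adjusted p = 0.0299). The groups did not overlap, and the oligodendrocyte markers above were lower in the same libraries; their part in the level of Tns3 was not tested. Leaving out cKO replicate 1 or 3, or control replicate 1, ended the edgeR call (adjusted p = 0.209, 0.117 and 0.192). Ccnd1, cyclin D1, was at 34.6, 33.5 and 24.2 CPM in cKO against 22.4, 23 and 23.2 in controls (log2 fold change 0.43, edgeR adjusted p = 0.392); its exons overlap a gene on the opposite strand by 1100 bp. Trim25, a ubiquitin ligase that is both estrogen- and interferon-inducible, had a value of 0.3 on the log2 fold scale (adjusted p = 0.64). Outside the naming rule, Greb1, the most used readout of estrogen receptor alpha in breast cells, was at 1.13 ± 0.42 CPM in cKO against 1.45 ± 0.446 in controls (log2 fold change -0.33, edgeR adjusted p = 0.907). Oxtr, the oxytocin receptor, was at 17.1 ± 0.669 and 17.4 ± 0.94 CPM.

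**Figure D4:**
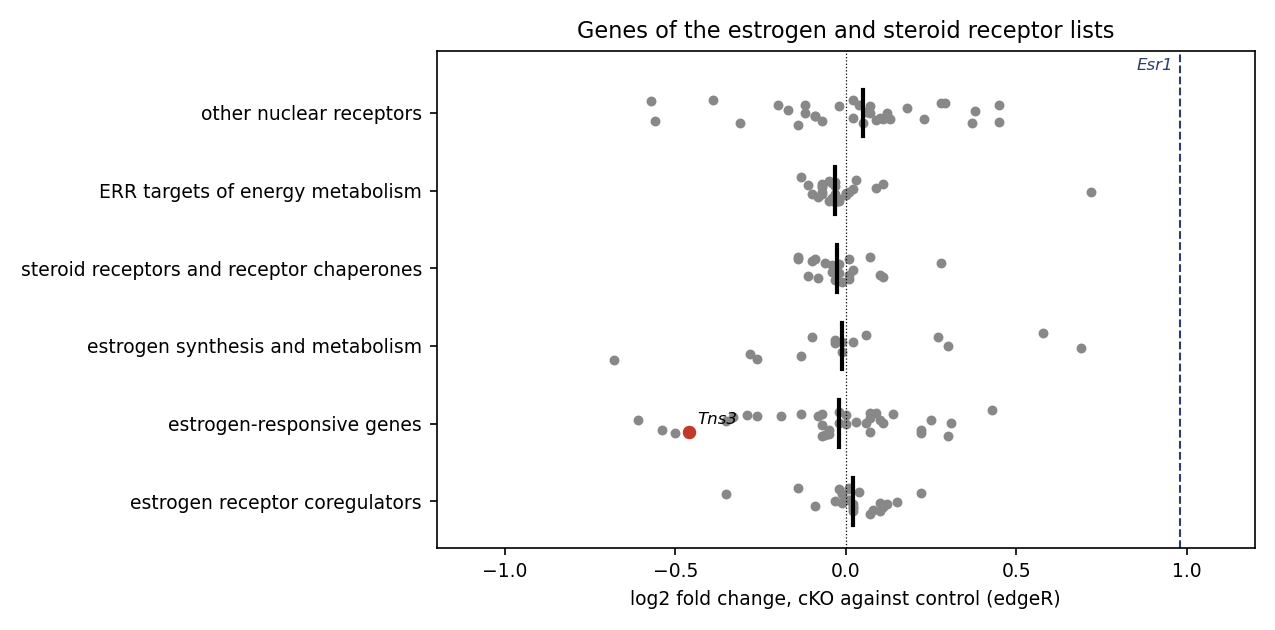
EdgeR log2 fold change of cKO against control (horizontal axis) for each tested gene of 6 lists (grey points, red where called), with the list median as a black bar and the value of Esr1 as a dashed line. All list medians lie between -0.03 and 0.05, Tns3 is the only called gene, and no listed gene reaches the 0.98 of Esr1.

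Of the 15 tested genes of estrogen synthesis and breakdown, 0 were called by edgeR and 2 had an unadjusted p under 0.05. Over all tested genes these shares were 0.266% and 6.27%. The list's median log2 fold change was -0.01. Cyp1b1, a cytochrome that hydroxylates estradiol and is expressed in mural and meningeal cells, was at 21.4, 29 and 20.8 CPM in cKO against 14.8, 12.5 and 16.7 in controls. The groups did not overlap, but the log2 fold change of 0.69 did not pass edgeR (adjusted p = 0.138); it passed DESeq2 (0.00189), limma-voom (0.0394) and edgeR without control replicate 3 (0.0341). Of 11 fibroblast and meningeal markers 10 had a log2 fold change above 0, with a median of 0.34 and a highest value of 1.29. By edgeR 5 of the 11, the lowered Pdgfra among them, had an unadjusted p under 0.05 and 0 were called. Over all tested genes these shares were 6.27% and 0.266%. The summed level of the 11 markers, 369 to 584 CPM in cKO and 413 to 512 CPM in controls, includes Pdgfra, the 1 marker below 0. The part of these markers in the level of Cyp1b1 was not tested. Hsd17b12, a 17-beta-hydroxysteroid dehydrogenase, was lower in every cKO library, at 48.9 ± 2.12 against 59.1 ± 3.53 CPM (SD, n = 3 mice each). It was not called (log2 fold change -0.28, edgeR adjusted p = 0.264). Cyp11a1, the first enzyme of steroid synthesis, had a value of 0.58 on the log2 fold scale (adjusted p = 0.85). Cyp19a1, the aromatase that makes estradiol, was barely read, at 0.335 ± 0.2 CPM in cKO against 0.556 ± 0.175 in controls.

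The other steroid receptors and the chaperones that hold receptors ready for ligand held no called gene. Of 22 tested, 0 were called by edgeR, 0 had an unadjusted p under 0.05 and 0 were called by DESeq2 or limma-voom. The median log2 fold change of the list was -0.03. With 0.266% of all tested genes called by edgeR and 6.27% under that p, 0 calls in 22 genes is near the common share. The progesterone-binding membrane protein Pgrmc1 and the mineralocorticoid receptor Nr3c2 both had -0.14. Hsp90ab1, the main chaperone of steroid receptors and of CreERT2, was at 1360 ± 115 and 1350 ± 65.8 CPM.

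Among 33 tested nuclear receptors outside the estrogen receptor family, 0 were called by edgeR and 1 had an unadjusted p under 0.05. The median log2 fold change was 0.05, and the values ran from -0.57 to 0.45. The orphan receptor Nr2c2 had a value of -0.2 on the log2 fold scale (adjusted p = 0.768) and Nr1i3 one of -0.39 (adjusted p = 0.854). Exons of both overlap genes on the opposite strand. Target genes of the estrogen-related receptors in energy metabolism, 29 tested, held 0 called genes, 1 at an unadjusted p under 0.05 and a median of -0.03. Sdhb, of respiratory complex II, was at 104 ± 2.28 CPM in cKO against 114 ± 2.99 in controls (SD, n = 3 mice each; log2 fold change -0.13, edgeR adjusted p = 0.785). Cs, citrate synthase, had -0.11 and Cycs, cytochrome c, had -0.1. By DESeq2 and limma-voom 0 genes of either list were called. Both lists stand beside edgeR shares of 0.266% called and 6.27% at an unadjusted p under 0.05 over all tested genes.

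Genes beside Esr1 on chromosome 10 were compared in the same way. Of 11 tested neighbours from 345 kb upstream to 1310 kb downstream of the Esr1 start, 0 were called by edgeR and 1 had an unadjusted p under 0.05. Over all tested genes these shares were 0.266% and 6.27%. The neighbours' median log2 fold change was -0.03. Distances were taken between gene starts, not gene bodies. By this measure the nearest, Ccdc170 at 129 kb upstream, was at 1.21 ± 0.37 CPM in cKO against 1.4 ± 0.15 in controls (SD, n = 3 mice each). Upstream of it, Armt1, Rmnd1, Zbtb2 and Akap12 had 0.1, -0.04, -0.12 and -0.14. Downstream, the nuclear envelope protein Syne1 had 0.1, Vip 0.22, Fbxo5 -0.16, Mtrf1l 0.07 and Rgs17 -0.03. Myct1, a gene of endothelial cells, had a log2 fold change of 0.96 from a low level, at 1.28, 1.57 and 0.73 CPM in cKO against 0.52, 0.828 and 0.456 in controls, and overlapped by 1 library (edgeR adjusted p = 0.752).

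The neighbours of Pdgfra on chromosome 5 were read in the same way, since the transgene is driven by this gene and how it was built is not given in the sources used here. Of 10 tested genes, Pdgfra among them, 0 were called by edgeR, 1 had an unadjusted p under 0.05 and the median log2 fold change was -0.06. Over all tested genes 0.266% were called and 6.27% had such a p. Pdgfra itself was the 1 gene under that p. It was called by DESeq2 (adjusted p = 0.004) and by edgeR without cKO replicate 2 (0.03). Chic2, at 108 kb upstream of the Pdgfra start, was at 33.9 ± 2.48 CPM in cKO against 33.6 ± 1.47 in controls. Gsx2, a homeobox gene of striatal progenitors at 76.7 kb upstream, was at 0.572 ± 0.212 and 0.755 ± 0.196 CPM. Kit, at 423 kb downstream, had a log2 fold change of -0.17, and Lnx1 and Fip1l1, which overlap each other on opposite strands, had -0.1 and -0.12. Kdr, Srd5a3, Tmem165 and Clock were between -0.02 and 0.05. No listed neighbour of Pdgfra had a log2 fold change above 0.05. What the transgene holds of this region was not tested.

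**Figure D5:**
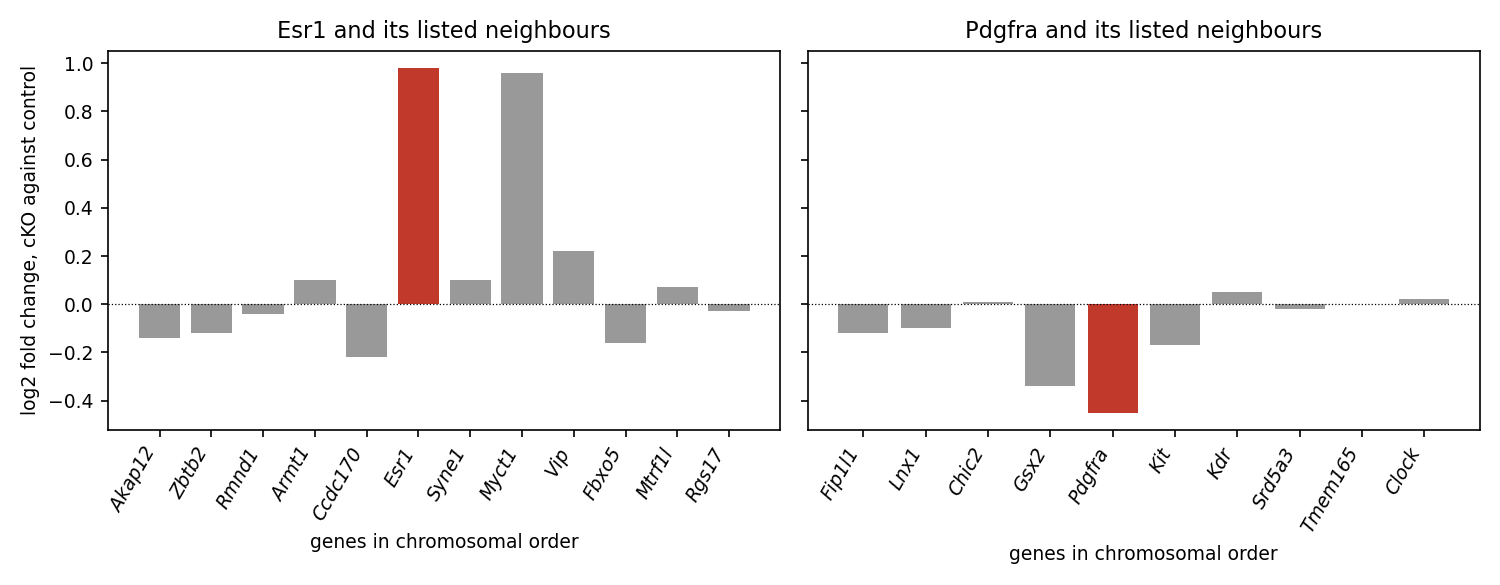
EdgeR log2 fold change of cKO against control (vertical axis) for Esr1 and its listed neighbours on chromosome 10 and for Pdgfra and its neighbours on chromosome 5, in chromosomal order; spacing is not to scale and no error is drawn. Esr1 at 0.98 stands beside neighbours from -0.22 to 0.22 apart from Myct1 at 0.96, and Pdgfra at -0.45 is the lowest of its set.

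The genes whose levels followed Esr1 most closely over the 6 libraries were Plcd4, Arf5, Pmaip1, Gbp9 and Cramp1l, with Pearson's r of log2 CPM from 0.969 to 0.995 among 15240 genes with a mean of at least 1 CPM. Plcd4, a phospholipase C, was at 13.2, 13.2 and 12.2 CPM in cKO against 9.53, 9.57 and 11.1 in controls, so that control replicate 3 was again the highest control and cKO replicate 3 the lowest cKO library. The genes closest to ENSMUSG00000044341 were Inafm2, 1700124L16Rik, Eda2r, Tnfrsf1a and 2610044O15Rik8, with r from 0.981 to 0.996. Their log2 fold changes ran from 0.19 for Inafm2 to 1.06 for Eda2r, the receptor for ectodysplasin A2, against 6.41 for ENSMUSG00000044341. Between Esr1 and ENSMUSG00000044341 r was 0.93. These values rest on 6 libraries of 2 groups, so any gene that differs between the groups with little spread scores high.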

How the data were processed

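Poly-A RNA of 6 forebrains was sequenced from directional libraries, per the labels' protocols. The deposited values are whole read counts per Ensembl gene. The submitters' processing notes list STAR 2.5, HTSeq 0.6.1, CASAVA, DESeq and mm10 but not what each did. Neither annotation release nor strand setting is given in the sources used here. The deposited FPKM values equalled the count divided by the table's total and by 1 length per gene, whole within 0.01 bp for 100% of values. Of 35275 identifiers, 34490 had a name in GENCODE M21 (also mm10).

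Genes were filtered by filterByExpr (minimum count 10, minimum total 15) and 16938 were tested on counts with edgeR 4.0.16 in R 4.3.3: TMM scaling, robust quasi-likelihood test, two-sided, Benjamini-Hochberg adjustment over all tested genes, called at an adjusted p under 0.05. The step was tested on simulated data. Levels are TMM-normalised CPM, mean ± SD over 3 mice. Counting intervals are exact Poisson at 95%, and the pooled ratio's is exact binomial. Correlations used log2(CPM + 0.5). Alternatives used DESeq2 1.42.0 and limma 3.58.1. The replicate numbers name mice and pair none across groups by the labels.

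The members and lists were chosen with earlier results of these data known. Named genes were the 8 members, Parp1, Pdgfra, the 3 genes with the smallest p of each pathway list and any called, all tested chromosomal neighbours, and the 5 genes most correlated with Esr1 and with ENSMUSG00000044341; others were added after their values were seen. A gene that this rule takes is not reported here. Lists were taken from textbook knowledge. No 2 libraries agreed within sampling noise (chi-square per degree of freedom from 4.09 to 22).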

Additional observations from a re-analysis of the deposited data

How the results depend on the processing

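Over 18 alternatives, 0 called values changed sign, and of 448 values 46 moved and 402 stayed within the spread between replicates or, for counts, within 1.5 times. On log2(FPKM + 1) the Esr1 log2 fold change was 0.48, with or without the filter at a mean FPKM of 0.5, and that of ENSMUSG00000044341 was 3.05 both times; on log2(FPKM + 0.1) the latter was 5.41. A pseudocount of that size compresses low levels by construction. Genes called higher in cKO, 10 in the analysis reported, were 50 with no low count filter, 51 by DESeq2, 6 by edgeR without robust dispersion, 4, 4 and 3 on FPKM + 1, FPKM + 0.1 and unfiltered FPKM + 1, and 4 to 19 when each library was left out (4 without control replicate 1, 16 without control replicate 3, and 6, 5 and 19 without cKO replicates 1, 2 and 3). Genes called lower, 35, were 61 with no filter, 62 by DESeq2, 20, 20 and 14 on the FPKM scales, and 24 to 44 with libraries left out. For estrogen-responsive genes the count of 1 was 0 by limma-voom, by edgeR without robust dispersion and on the 3 FPKM scales, and 0 to 1 with libraries left out. For estrogen synthesis the count of 0 was 1 with no filter, by DESeq2 and by limma-voom, and 0 to 1 with libraries left out. For the Pdgfra list, which holds Pdgfra itself, the count of 0 was 1 by DESeq2 and 0 to 1 with libraries left out. Pdgfra was the gene called by DESeq2 and without cKO replicate 2. With the replicate number as a replicate block, 5 genes were called higher and 0 estrogen-responsive genes were called, and Esr1, with a log2 fold change of 0.99, was no longer called. Over all 19 settings Esr1 was called in 7, the reported one included. Esr1 was chosen from this same comparison, so these calls are no test of it. Same-numbered libraries did not deviate together (r from -0.0585 to -0.00823), which gave no sign of a pairing. With 3 libraries per group this check cannot exclude one. Of 144 list medians, none of them a called value, 9 moved. Some changed sign: the Esr1 neighbours' from -0.03 to 0.07 by limma-voom, 0.01 without cKO replicate 1 and 0.03 without control replicate 3. That of estrogen-responsive genes went from -0.02 to 0.02 by limma-voom, and that of estrogen synthesis from -0.01 to 0.03 without cKO replicate 1 and 0.02 without control replicate 3. Beyond what the text or a setting's construction gives, the cause was not tested. With 60 to 217 reads per library, Esr1 carries 7.13% to 10.9% counting error, and Esr2 over 37%.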
